A study of Mus musculus with 12 samples.

Results

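The transcriptional state of primary mouse CD4+ T cells 72 h after stimulation with 3 soluble antibodies, against CD3, CD28 and ICOS together, was compared with that of freshly isolated, unstimulated cells. The comparison used 6 of the 12 libraries of the series, 3 per group, chosen by their group labels, and all 17203 listed genes, of which 9826 reached 10 CPM (counts per 1000000 reads assigned to genes) in at least 3 of the 12 libraries and were tested. Every group was made from primary CD4+ T cells of C57BL/6 mice, and no group carried a labelled allele or transgene. The Unstimulated cells had been freshly isolated and not activated. The CD3_CD28_ICOS cells had received anti-ICOS together with anti-CD3 and anti-CD28, all in soluble form, for 72 h. For reference, CD3 cells had been activated with plate-bound anti-CD3 alone and CD3_CD28 cells with plate-bound anti-CD3 and soluble anti-CD28, in both cases for 72 h. The CD3_CD28_ICOS group therefore differed from the unstimulated group in stimulation and in 72 h of culture, which cannot be told apart, and from the CD3_CD28 group in the added antibody and in the form of the anti-CD3. The series' design text speaks of transduced cells, whereas no sample label names a vector. Nor do the labels tie the replicates to separate mice or cultures, so a p-value here weighs a difference against library-to-library spread that may be technical.

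The T cell receptor signals through the CD3 chains. It activates calcineurin and NFAT, the MAP kinases and AP-1, and NF-kB, and drives a resting cell out of quiescence into growth and division. CD28 is the classical costimulatory receptor, which strengthens PI3K signalling, glycolysis and interleukin-2 production. ICOS is a related receptor that appears on activated cells, signals strongly through PI3K, and is best known for its part in follicular helper and regulatory T cell responses.

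By the smallest step between low CPM values, the 12 libraries held an estimated 11.4 to 37.5 M reads each (M, 1000000), and those of the CD3_CD28_ICOS group 26.7 to 37.5 M reads, so that 1 read was worth 0.0267 to 0.0374 CPM there. T cell markers were abundant in every library. Cd4 was at 1123, 1165 and 1138 CPM in the 3 Unstimulated libraries and at 940.1, 1178 and 1144 CPM in the 3 CD3_CD28_ICOS libraries, and those ranges overlapped. Several libraries stood apart. Unstimulated replicate 3 had 8183 CPM in 15 genes of stress and tissue dissociation, against 1957 and 1642 CPM in the other two and 2074 to 2084 CPM after CD3_CD28_ICOS. Summed B cell markers (15 genes, among them Cd79a and Ms4a1) were at 2011, 1359 and 1693 CPM in Unstimulated, 3375, 1517 and 2866 CPM in CD3_CD28_ICOS and 319 to 376 CPM in CD3_CD28 libraries. Of the 15, 14 were higher in CD3_CD28_ICOS than in CD3_CD28 libraries, with a median difference of 4.15, and none passed the test against CD3 libraries, which had 1621 to 2967 CPM. CD3_CD28_ICOS replicate 2 was lowest of its group in these markers and highest in genes of glycolysis and of the response to low oxygen. CD3_CD28 replicate 1 had 11.8% of its CPM in the ribosomal RNA gene CT010467.1, against 1.26% to 3.20% in the other 11 libraries.

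A majority of tested genes changed. With limma on log2(CPM + 1) and a Benjamini-Hochberg adjusted p under 0.05, 3500 genes (35.6%) were higher and 2332 genes (23.7%) were lower in CD3_CD28_ICOS than in Unstimulated cells. The 2 groups did not overlap for 6338 genes (64.5%). A change of at least 1 log2 unit was reached by 1312 genes upward (13.4%) and 429 genes downward (4.37%), and the median log2 fold change over all tested genes was 0.08. Of all calls 60% were higher; quantile normalization lowered the median of all genes by 0.16 and gave 44.0%, and size factors by median of ratios lowered it by 0.10 and gave 49.2%, so that changes of about that size depend on the scaling. Against CD3_CD28 libraries the share of calls that were higher was 61.2%, and 50.9% and 48.6% under those scalings; against CD3 libraries it was 39.7%, and 50.5% and 48.4%. The 15 largest rises named by rule included genes of mitosis, of metabolism and of receptors, and the 15 largest falls were mostly of genes of other cell types. Counts of list members below are to be read beside the 35.6% higher and 23.7% lower of all tested genes. Against CD3_CD28 libraries those shares were 38.5% and 24.5%, and against CD3 libraries 18.9% and 28.7%. Log2 fold changes below are on the log2(CPM + 1) scale with the standard error of the fit, over 3 libraries per group, and adjusted p-values are from limma.

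**Figure D1:**
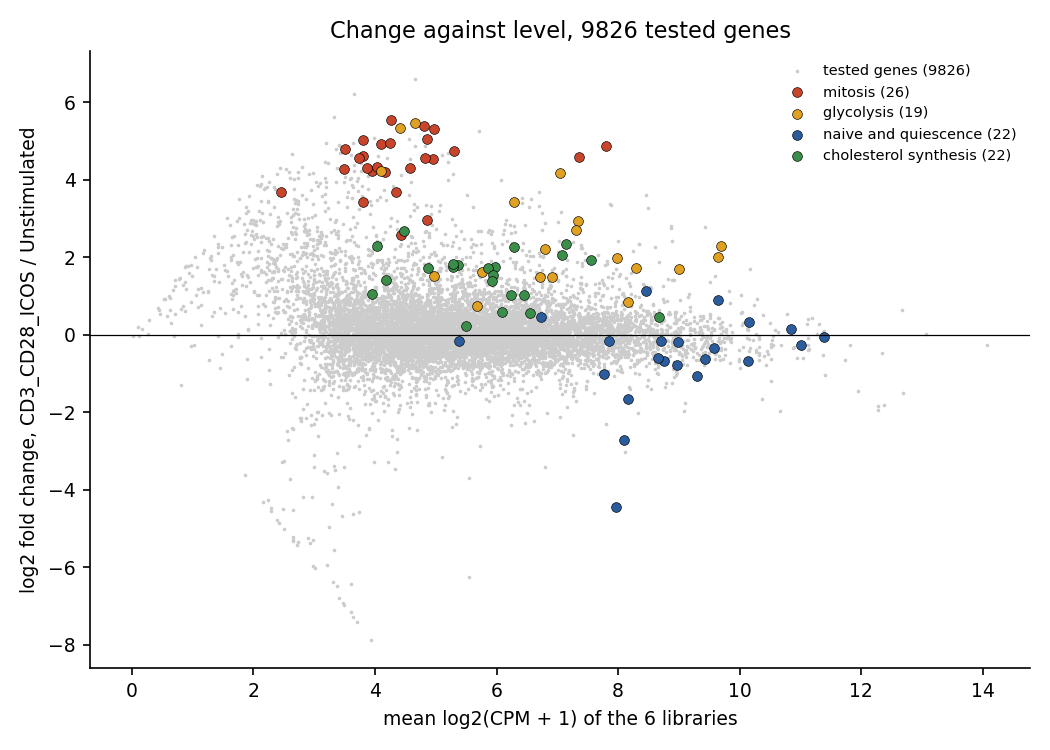
Log2 fold change, CD3_CD28_ICOS against Unstimulated (y axis), against the mean log2(CPM + 1) of the 6 libraries (x axis) for the 9826 tested genes. Grey points are all tested genes and coloured points the tested members of 4 gene lists (mitosis, glycolysis, cholesterol synthesis, naive and quiescence): all 26 mitosis and all 19 glycolysis genes lie above 0, while naive and quiescence genes lie on both sides of it.

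The genes of the costimulatory receptors rose. Icos rose from 49.6, 41.7 and 37.0 CPM to 148, 139.6 and 142 CPM, by 1.73 ± 0.11 on the log2 scale (adjusted p = 1.34e-08), with no overlap. CD3_CD28 libraries had 230.1, 216 and 253 CPM, 0.70 ± 0.11 log2 units more than the CD3_CD28_ICOS group, and CD3 libraries 90.2, 87.2 and 79.0 CPM, which was 0.74 ± 0.11 log2 units less than in that group. Cd28 rose by 0.84 ± 0.10 (adjusted p = 7.01e-06), from 336, 342 and 285 CPM to 529, 625 and 575 CPM. Ctla4, the inhibitory receptor that competes with CD28 for its ligands, was at 8.88, 4.59 and 9.99 CPM before and 260.5, 403 and 318 CPM after stimulation, a rise of 5.25 ± 0.24 (adjusted p = 4.84e-09). Pdcd1, which encodes PD-1, rose by 1.93 ± 0.32 (adjusted p = 0.000267). Among 12 tested genes of the CD28 family, of PI3K subunits and of negative regulators of PI3K, 5 rose and 3 fell. Pik3r5, a regulatory subunit of a PI3K, fell by 0.89 ± 0.17 (adjusted p = 0.000524). Pik3ip1, an inhibitor of PI3K, was at 222, 172 and 127 CPM and 102, 129 and 135 CPM, and its fall of 0.48 ± 0.19 (adjusted p = 0.0459) did not pass without Unstimulated replicate 1 (-0.28, adjusted p = 0.203) or 2, or CD3_CD28_ICOS replicate 1 or 2, in a fit of the 2 groups alone, with the replicate block, without the filter on low values or without trend and robust estimation. Inpp4b, a phosphatase that removes a PI3K product, rose by 0.61 ± 0.10 (adjusted p = 0.000194) and was higher than in both CD3_CD28 (by 1.01 ± 0.10) and CD3 libraries (by 0.90 ± 0.10).

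Of 21 tested genes of the T cell receptor complex and its proximal signalling, 8 fell, 3 rose and 10 did not pass the test, with a median of -0.11. Without Unstimulated replicate 2, 5 fell, a share near the 23.7% of all tested genes. Cd3e, a signalling chain of the complex, fell from 567, 534 and 484 CPM to 406, 383 and 410.1 CPM, by 0.40 ± 0.10 (adjusted p = 0.00302). Cd3g, another of its chains, fell by 0.30 ± 0.09 (adjusted p = 0.0109), a call that was lost without Unstimulated replicate 2 (adjusted p = 0.0554), while Cd3d, at 468, 551 and 468 CPM and 437, 442 and 499 CPM, did not pass (-0.11 ± 0.10, adjusted p = 0.391). Cd247, the zeta chain, fell by 0.43 ± 0.08 (adjusted p = 0.00033), and Lat, the membrane scaffold, by 0.99 ± 0.09 (adjusted p = 8.95e-07). For each of the 4 that fell the stimulated libraries lay below all unstimulated ones. Ptpn22, a phosphatase that dampens receptor signalling, rose by 1.59 ± 0.13 (adjusted p = 1.48e-07), and Plcg1, the phospholipase that starts calcium signalling, by 0.49 ± 0.10 (adjusted p = 0.000744). T cell markers as a whole (12 genes) summed to 6360 to 7154 CPM in Unstimulated, 5708 to 6097 CPM in CD3_CD28_ICOS, 4304 to 4943 CPM in CD3 and 3523 to 4057 CPM in CD3_CD28 libraries. In the direct comparison with CD3_CD28 libraries, where 38.5% of tested genes were higher in CD3_CD28_ICOS and 24.5% lower, 14 of the 21 were higher and 3 lower. Against CD3 libraries, where 18.9% of tested genes were higher and 28.7% lower, 15 were higher and 2 lower.

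Several defining naive genes were not called lower after 72 h of stimulation. Tcf7, the transcription factor TCF-1 of naive and memory cells, was at 2368, 2411 and 2037 CPM in Unstimulated and 1906, 1774 and 1996 CPM in CD3_CD28_ICOS libraries. The log2 difference of -0.26 ± 0.13 (adjusted p = 0.095) did not pass the test, but it did under 4 alternatives: size factors by median of ratios (-0.37, adjusted p = 0.00873), CPM without the gene CT010467.1 (adjusted p = 0.0457), a fit of the 2 groups alone (adjusted p = 0.032) and without the 3 libraries that stand apart (adjusted p = 0.0479). By contrast, CD3 libraries had 837, 664 and 777 CPM of Tcf7 and CD3_CD28 libraries 329.8, 485 and 411 CPM. Tcf7 was higher in CD3_CD28_ICOS than in CD3_CD28 libraries, by 2.22 ± 0.13, and than in CD3 libraries, by 1.32 ± 0.13 (larger adjusted p of the 2, 6.52e-06).

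Of the 22 naive and quiescence genes tested, 10 fell, 3 rose and 9 did not pass the test, and the median log2 fold change was -0.30, against 0.08 for all tested genes. In the other stimulated groups, compared with the same unstimulated libraries, 20 (CD3) and 19 (CD3_CD28) of the 22 fell, with medians of -1.43 and -1.87. The background in those comparisons was 26.3% and 39.1% of tested genes lower. In the direct contrasts 20 of the 22 were higher than in CD3_CD28 libraries and 18 higher than in CD3 libraries. Ccr7, the receptor that guides naive cells to lymph nodes, rose from 599.6, 661 and 510.4 CPM to 1003, 1159 and 1125 CPM, by 0.90 ± 0.15 (adjusted p = 0.000212). Bach2, a repressor that holds back effector differentiation, rose by 1.13 ± 0.09 (adjusted p = 1.01e-07), from 236, 231 and 237 CPM to 499.8, 526 and 525 CPM. B cells also express Ccr7 and Bach2, and the summed B cell markers given above were higher in 2 of the 3 CD3_CD28_ICOS libraries than in any Unstimulated library. Their part in these 2 rises was not tested.

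Other genes of resting cells fell. Igfbp4, which encodes a binding protein for insulin-like growth factors, went from 1161, 1189 and 1143 CPM to 28.4, 99.1 and 50.4 CPM, a fall of 4.45 ± 0.33 (adjusted p = 7.88e-07). It was lower than in either other stimulated group, where it was at 122, 141 and 121 CPM (CD3) and 279.9, 315 and 322 CPM (CD3_CD28). Il7r, the receptor for the survival cytokine interleukin-7, fell from 966, 667 and 535 CPM to 70.9, 133 and 124 CPM, by 2.72 ± 0.25 (adjusted p = 1.68e-06). Klf2, which keeps naive cells quiescent and drives their exit from tissue, fell by 1.67 ± 0.30 (adjusted p = 0.000661) to 138, 184 and 161 CPM, while CD3_CD28 libraries had 15.7, 24.7 and 24.7 CPM. Its target S1pr1, the receptor for egress from lymph nodes, fell by 0.77 ± 0.18 (adjusted p = 0.00241) and was 3.10 ± 0.18 log2 units higher than in CD3_CD28 libraries. Foxo1, the transcription factor upstream of several of these genes, fell by 0.68 ± 0.10 (adjusted p = 4.65e-05). Il6ra, a chain of the interleukin-6 receptor, fell by 2.31 ± 0.10 (adjusted p = 7.36e-10), and Dtx1, a Notch regulator linked to anergy, from 367, 418 and 439.6 CPM to 3.38, 5.31 and 4.66 CPM, by 6.24 ± 0.21 (adjusted p = 3.34e-10).

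**Figure D2:**
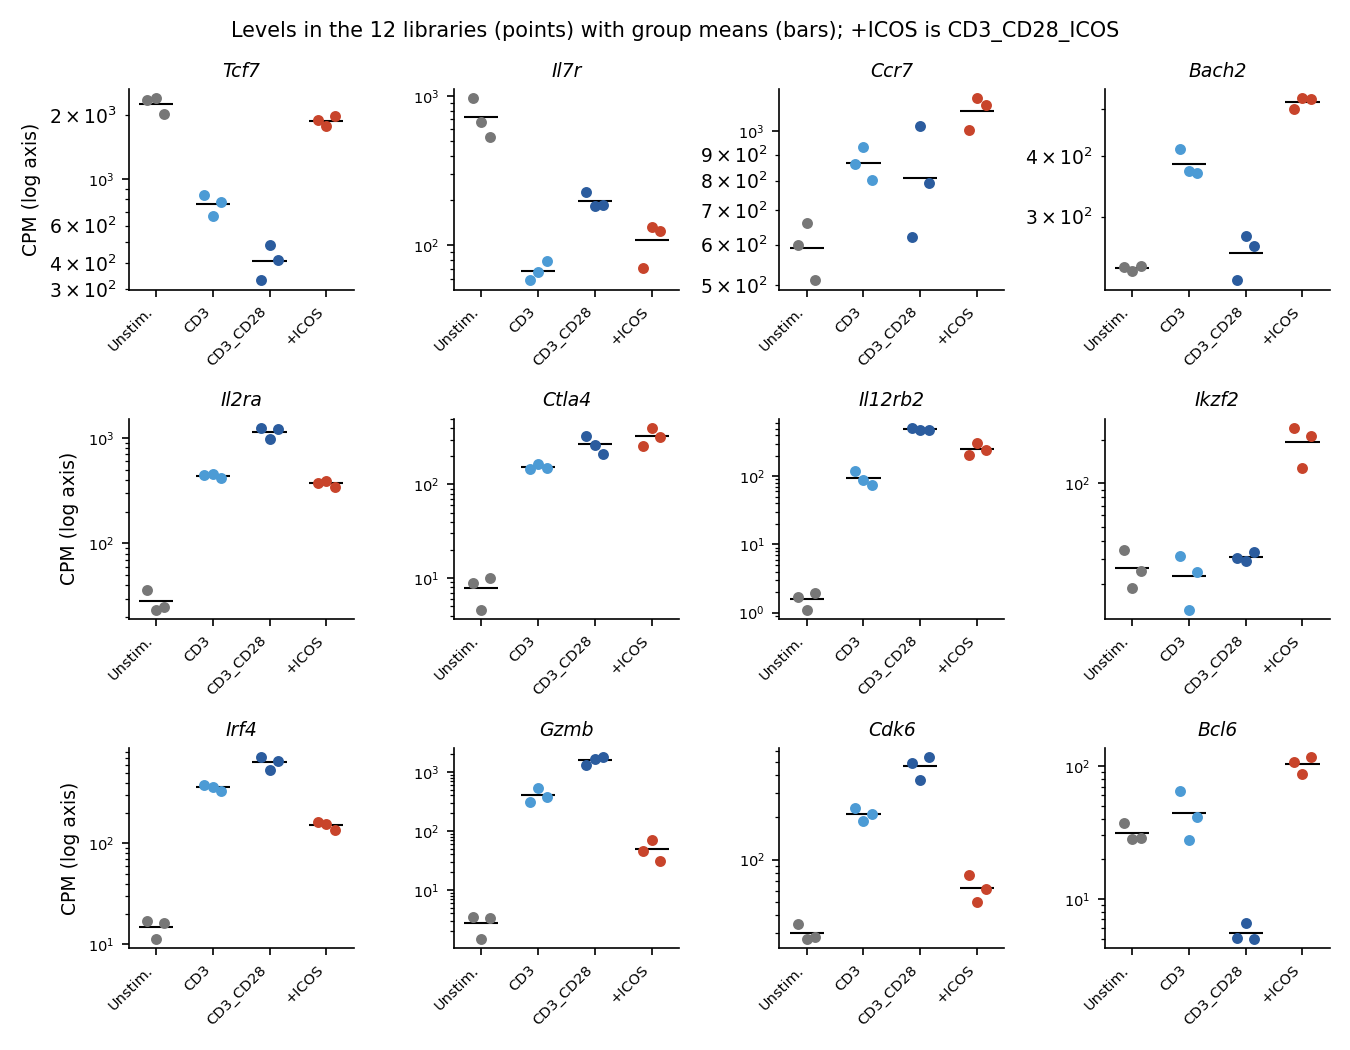
CPM on a log axis in each of the 12 libraries (points, 3 per group) for 12 genes, with the group mean as a bar. Tcf7 after CD3_CD28_ICOS lies near the unstimulated libraries and above both other stimulated groups; Gzmb, Irf4 and Cdk6 lie between the unstimulated libraries and both other stimulated groups.

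Homing and adhesion genes also changed. Of 21 tested chemokine receptors and integrins, 10 rose and 7 fell. Ccr4, a skin and TH2 homing receptor, rose by 2.55 ± 0.26 (adjusted p = 3.6e-06), and Cxcr3, a TH1 homing receptor, from 6.44, 2.95 and 3.13 CPM to 25.8, 12 and 18.2 CPM, by 1.93 ± 0.36 (adjusted p = 0.000474). Cxcr3 was at 1.10, 1.25 and 1.18 CPM in CD3_CD28 libraries. Ccr9, a gut homing receptor, fell to 1.47, 1.49 and 1.48 CPM, by 2.49 ± 0.23 (adjusted p = 6.51e-07). Cxcr4, the receptor for CXCL12, fell by 1.82 ± 0.37 (adjusted p = 0.00175) from 199, 87.1 and 297 CPM, with its highest value in Unstimulated replicate 3. In direct contrasts 13 of the 21 were higher and 4 lower than in CD3_CD28 libraries, and 11 higher and none lower than in CD3 libraries.

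Activation markers rose at the same time. Of 15 tested, 8 rose, 4 fell and 3 did not pass, with a median of 1.92; without the 3 libraries that stand apart 9 rose and 2 fell, and 2 fell without Unstimulated replicate 1 or CD3_CD28_ICOS replicate 2 or 3. Il2ra, the high-affinity chain of the interleukin-2 receptor, rose from 36.5, 23.4 and 25.2 CPM to 377, 392 and 344 CPM, by 3.69 ± 0.14 (adjusted p = 4.3e-10). Tnfrsf4, the costimulatory receptor OX40, rose by 4.47 ± 0.18 (adjusted p = 8.69e-10), and Tnfrsf9, the costimulatory receptor 4-1BB, by 3.40 ± 0.13 (adjusted p = 3.34e-10). Tfrc, the transferrin receptor, rose by 2.80 ± 0.21 (adjusted p = 2.4e-07), and Cd44, an adhesion receptor of activated and memory cells, by 1.92 ± 0.20 (adjusted p = 3.18e-06). The same 15 genes were mostly lower than in CD3_CD28 libraries: 12 were lower and none was higher. For Il2ra the CD3_CD28 libraries had 1251, 971 and 1230.4 CPM, 1.62 ± 0.14 log2 units above the CD3_CD28_ICOS group (adjusted p = 5.7e-07). Cd69, an early marker that fades after activation, was at 81.0, 53.1 and 264 CPM in Unstimulated and 32.5, 29.3 and 33.2 CPM in CD3_CD28_ICOS libraries, and fell by 1.69 ± 0.46 (adjusted p = 0.00942). Unstimulated replicate 3, with the high stress genes, was highest for it, and without that library Cd69 fell by 1.03. Cd40lg, the helper ligand for B cells and dendritic cells, fell by 1.44 ± 0.18 (adjusted p = 1.06e-05).

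Of 12 tested inhibitory receptors and related genes 7 rose and 2 fell. Lag3, which binds MHC class II, was at 5.95, 2.15 and 2.22 CPM before and 151, 127 and 129 CPM after stimulation, a rise of 5.04 ± 0.25 (adjusted p = 1.11e-08), and Tigit, a receptor for poliovirus receptor family proteins, rose by 2.98 ± 0.31 (adjusted p = 4.73e-06). Cd101, an immunoglobulin superfamily receptor, rose from 11.6, 12.5 and 8.47 CPM to 44.2, 52.3 and 57.8 CPM, by 2.15 ± 0.16 (adjusted p = 9.77e-08). In the other stimulated groups Cd101 was at 16.9, 13.7 and 13.6 CPM (CD3) and 8.97, 6.44 and 7.57 CPM (CD3_CD28), and the 3 CD3_CD28_ICOS libraries lay above all others. Of 10 tested anergy genes 6 rose and 2 fell, and 3 rose without CD3_CD28_ICOS replicate 3. Cblb, a ubiquitin ligase that raises the threshold for activation without CD28, rose from 218, 185 and 207 CPM to 945, 1156 and 1176 CPM, by 2.42 ± 0.11 (adjusted p = 8.91e-10), and was 0.60 ± 0.11 log2 units higher than in CD3_CD28 libraries (adjusted p = 0.000266). Dgka, a kinase that consumes diacylglycerol, fell by 0.39 ± 0.12 (adjusted p = 0.011), or by 0.23 without CD3_CD28_ICOS replicate 1, and was 1.51 ± 0.12 log2 units above CD3_CD28 libraries (adjusted p = 1.63e-07).

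The transcription factors downstream of the receptor did not move together. Irf4, induced in proportion to receptor signalling, rose from 17.0, 11.2 and 16.4 CPM to 165, 157 and 136 CPM, by 3.29 ± 0.15 (adjusted p = 1.24e-09). It stayed below the levels in CD3 libraries, 381, 367 and 335 CPM, and in CD3_CD28 libraries, 719, 533 and 662 CPM. Myc, the growth factor gene that drives metabolic activation, was at 101, 98.5 and 123 CPM and 136, 97.3 and 118 CPM, at 0.11 ± 0.13 (adjusted p = 0.454). These ranges overlapped, and without the 3 libraries that stand apart Myc was at 0.34 (adjusted p = 0.00835). CD3 libraries had 264, 243 and 235 CPM and CD3_CD28 libraries 256, 309 and 316 CPM, and lay above both other groups. Its antagonists moved otherwise: Mxd1 rose by 1.99 ± 0.14 (adjusted p = 4.02e-08) and Mxd4 by 1.33 ± 0.14 (adjusted p = 3.23e-06). Mxd4 was at 106, 101 and 105 CPM in Unstimulated, 254, 271 and 265 CPM in CD3_CD28_ICOS, 85.0, 52.0 and 61.3 CPM in CD3 and 73.4, 68.3 and 56.8 CPM in CD3_CD28 libraries, so that only the CD3_CD28_ICOS group of the 3 stimulated groups lay above the unstimulated one.

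Of 12 tested genes of the NFAT and calcineurin pathway, 4 rose and 2 fell, with a median of 0.003. The share that rose was near the 35.6% of all tested genes, of which 23.7% fell. Nfatc1, the NFAT gene that is itself induced by receptor signalling, rose by 0.52 ± 0.11 (adjusted p = 0.00109), from 253, 219.5 and 241 CPM to 351, 309 and 362 CPM. In this list the balance depended on the scaling, with 3 rises and 4 falls under quantile normalization. Nfatc2 (0.05 ± 0.11, adjusted p = 0.718) and Nfatc3 (-0.07 ± 0.10, adjusted p = 0.555) did not pass the test. Ppp3cc, which encodes a calcineurin catalytic subunit, rose by 1.54 ± 0.09 (adjusted p = 5.68e-09), and Nfat5, the family member that responds to osmotic stress, by 0.79 ± 0.10 (adjusted p = 9.83e-06). Of the 14 tested calcium entry genes, 5 rose, among them the store sensor Stim2 (0.96 ± 0.12, adjusted p = 1.39e-05), and 5 fell, among them the channel subunit Orai2 (-1.12 ± 0.09, adjusted p = 2.46e-07). The share of calcium entry genes that rose was near that of all tested genes. Among 13 tested AP-1 factors, 3 rose and 3 fell; 6 fell without Unstimulated replicate 2, and under quantile normalization 2 rose and 5 fell. Fosl2 rose by 1.97 ± 0.43 (adjusted p = 0.00275). Batf, which pairs with IRF4, was at 33.8, 29.0 and 26.8 CPM and 49.5, 36.2 and 46.0 CPM; its rise of 0.54 ± 0.17 (adjusted p = 0.0132) did not pass without Unstimulated replicate 3 or CD3_CD28_ICOS replicate 1 (adjusted p = 0.0536 and 0.0522) or under either other scaling (0.0687 and 0.0562). Fos was at 70.7, 30.9 and 1275 CPM in Unstimulated and 13.4, 19.9 and 23.7 CPM in CD3_CD28_ICOS libraries. Jun was at 72.0, 45.8 and 1094 CPM and 36.3, 55.1 and 41.2 CPM. The high values of both genes were those of Unstimulated replicate 3, and neither passed the test (adjusted p = 0.0515 and 0.142), though Fos did under both other scalings (adjusted p = 0.0326 and 0.0404). Without that library Fos fell by 1.29 (adjusted p = 0.0171) and Jun was at -0.39 (adjusted p = 0.249), and without Unstimulated replicate 2 both fell.

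NF-kB genes rose in larger number, 10 of 15, with 1 fall. Rel, the subunit c-Rel, rose from 65.8, 64.6 and 63.1 CPM to 273, 241 and 270.2 CPM, by 2.00 ± 0.18 (adjusted p = 1.15e-06), and Nfkb2 by 1.69 ± 0.18 (adjusted p = 3.45e-06). EGR and NR4A genes are induced by calcium signals. With Nab1 and Nab2 there were 8 tested, of which 5 rose and none fell. Without Unstimulated replicate 3, 7 rose, and 1 fell under either other scaling. Nr4a3 rose by 3.31 ± 0.23 (adjusted p = 1.57e-07) and Egr2 by 1.45 ± 0.27 (adjusted p = 0.00068). Nr4a2 was at 2.18, 1.46 and 3.30 CPM and 8.34, 4.15 and 4.83 CPM, a rise of 1.02 ± 0.31 (adjusted p = 0.0118) that did not pass without Unstimulated replicate 2 or CD3_CD28_ICOS replicate 1 or with a pseudocount of 5, and was -0.14 under quantile normalization. CD3 libraries had 74.0, 61.7 and 53.5 CPM, a difference of -3.28 ± 0.31 (adjusted p = 7.77e-06).

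Factors of lineage identity and chromatin changed in both directions. Of 20 tested Ikaros, RUNX and other identity factors, 9 rose and 7 fell. Myb, a factor of proliferating and precursor cells, rose from 43.4, 24.7 and 26.1 CPM to 276, 115 and 234 CPM, by 2.64 ± 0.40 (adjusted p = 0.000236), and was higher than in CD3_CD28 libraries by 2.07 ± 0.40 (adjusted p = 0.00113). CD3 libraries had 524, 363 and 488 CPM. Ikzf4, the factor Eos, rose by 2.02 ± 0.16 (adjusted p = 1.38e-07). Bcl11b, which maintains T cell identity, fell from 526, 555 and 504 CPM to 285, 288 and 292 CPM, by 0.87 ± 0.08 (adjusted p = 6.99e-07), and Id2, an inhibitor of E proteins, by 1.11 ± 0.16 (adjusted p = 3.68e-05). Bcl11b stayed above its level in CD3 and CD3_CD28 libraries, by 0.47 ± 0.08 and 0.86 ± 0.08. Of 8 tested interferon regulatory factors 5 rose and 1 fell. Irf8, the factor of myeloid and B cells that activated T cells also express, rose by 3.52 ± 0.20 (adjusted p = 1.9e-08), to 288, 415 and 269 CPM. Of 14 tested genes of DNA methylation and polycomb complexes 8 rose and none fell. Ezh2, the polycomb methyltransferase, rose by 2.24 ± 0.12 (adjusted p = 4.61e-09), and Dnmt3a, a de novo DNA methyltransferase, by 1.48 ± 0.10 (adjusted p = 3.05e-08).

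Of 12 tested messenger RNA decay regulators, 2 rose and 3 fell (5 and 3 without the libraries that stand apart), the falls near the 23.7% of all tested genes, and 9 were higher and none lower than in CD3_CD28 libraries. Btg1, an antiproliferative gene of quiescent cells, fell from 1357, 1299.6 and 1599 CPM to 988, 733 and 959.7 CPM, by 0.67 ± 0.11 (adjusted p = 0.000173), and Zfp36l2, a protein that destabilises AU-rich messages, by 1.04 ± 0.25 (adjusted p = 0.00358). Zfp36l2 was at 607, 479 and 1211 CPM in the Unstimulated libraries, highest in replicate 3, and it fell by 0.66 without that library. Zc3h12d, an endonuclease of the Regnase family, rose by 2.04 ± 0.12 (adjusted p = 1.14e-08).

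Of the 60 gene lists examined, mitosis genes had the highest median rise. All 26 tested mitosis genes rose, by 2.57 (Ndc80, of the kinetochore) to 5.55 (Aspm, of the spindle pole), with a median of 4.57. Aspm was at 2.18, 1.13 and 2.30 CPM in Unstimulated and 129, 153 and 114 CPM in CD3_CD28_ICOS libraries (adjusted p = 4.31e-10). Cenpf, a kinetochore protein, rose by 5.38 ± 0.23 (adjusted p = 2.88e-09), Kif4, a chromosome motor, by 5.03 ± 0.27 (adjusted p = 2.03e-08), and Mki67, the proliferation antigen Ki-67, by 4.87 ± 0.26 (adjusted p = 3.42e-08). Mki67 was at 47.5, 25.9 and 52.6 CPM and 1283, 1415 and 955 CPM. Differences from the other stimulated groups were smaller: 7 of 26 were higher and none lower than in CD3_CD28 libraries, and none higher and 16 lower than in CD3 libraries. Since the libraries are bulk RNA, more dividing cells and more RNA per dividing cell cannot be told apart.

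The promoters of 3 of these mitosis genes are shown because they carry the CCAAT box that is common among cell cycle promoters. RefSeq promoters (build GRCm38.p6) were matched by symbol for 7402 of the 9826 tested genes, and the first listed start of each gene was used. Each sequence is the 250 bases before the start, 5′ to 3′ on the gene's strand, with every CCAAT, on either strand, in capitals.
Aspm (chr1:139454523-139454772, plus strand): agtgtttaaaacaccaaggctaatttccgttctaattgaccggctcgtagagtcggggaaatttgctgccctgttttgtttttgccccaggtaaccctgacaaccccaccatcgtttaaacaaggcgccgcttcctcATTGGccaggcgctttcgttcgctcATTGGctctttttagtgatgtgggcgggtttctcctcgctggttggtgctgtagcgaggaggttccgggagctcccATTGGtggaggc
Cenpf (chr1:189688087-189688336, minus strand): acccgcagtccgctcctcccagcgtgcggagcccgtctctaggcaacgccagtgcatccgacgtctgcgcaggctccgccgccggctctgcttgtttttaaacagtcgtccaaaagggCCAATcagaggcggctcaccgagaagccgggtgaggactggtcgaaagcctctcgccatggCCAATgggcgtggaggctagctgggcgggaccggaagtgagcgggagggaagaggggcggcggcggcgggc
Kif4 (chrX:100625815-100626064, plus strand): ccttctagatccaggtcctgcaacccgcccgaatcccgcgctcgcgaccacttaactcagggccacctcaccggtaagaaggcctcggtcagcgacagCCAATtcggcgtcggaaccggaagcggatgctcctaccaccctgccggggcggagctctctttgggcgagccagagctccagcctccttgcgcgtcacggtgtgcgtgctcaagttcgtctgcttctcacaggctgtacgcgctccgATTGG
CCAAT was found in 18 of the 22 mitosis promoters (81.8%), in 37.3% of the promoters of all tested genes and in 34.5% of all 27025 promoters in the table. TTTGAA or TTCGAA, the core of the cell cycle homology region, was found in 9 of the 22 (40.9%), against 12.3% and 17.4%. The AP-1 site TGANTCA was found in 5.3% of the 963 promoters of genes that rose by at least 1 log2 unit and in 3.84% of those of all tested genes. The NFAT core GGAAA was found in 55.7% and 54.9%. These matches describe the letters of a short window and no binding was measured.

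The replication genes rose as well, to levels below those of CD3 libraries. Of 31 tested, 28 rose, none fell, and the median was 1.31. Mcm10, a replication initiation factor, rose from 2.22, 0.692 and 2.04 CPM to 42.4, 30.02 and 23.2 CPM, by 3.65 ± 0.27 (adjusted p = 1.68e-07), and Pole, a polymerase subunit, by 3.19 ± 0.21 (adjusted p = 6.11e-08). All 31 were lower than in CD3 libraries, where the median difference was -1.26, while 3 were higher and 5 lower than in CD3_CD28 libraries. Rrm2, a subunit of ribonucleotide reductase, was at 108, 77.9 and 61.0 CPM in CD3_CD28_ICOS and 162, 200.1 and 195 CPM in CD3 libraries (-1.19 ± 0.23, adjusted p = 0.0013). Among 18 tested G1 cyclins, kinases and inhibitors, 11 rose and 2 fell. Cdk6, a kinase that drives exit from G1, rose by only 1.04 ± 0.17 (adjusted p = 0.000141), to 77.0, 49.97 and 61.7 CPM. It was at 235, 189 and 211 CPM in CD3 and 485, 371 and 538 CPM in CD3_CD28 libraries, and the groups did not overlap. Cdkn1a, the p53-regulated inhibitor p21, rose from 0.400, 0.364 and 0.695 CPM to 6.90, 12.04 and 6.07 CPM, by 2.60 ± 0.21 (adjusted p = 2.08e-07). CD3_CD28 libraries had 274, 248 and 269 CPM, 4.88 ± 0.21 log2 units more (adjusted p = 3.7e-09). The cyclin Ccnd3 fell by 1.04 ± 0.15 (adjusted p = 3.83e-05) and Ccnd2 by 0.43 ± 0.11 (adjusted p = 0.00302).

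Among 14 tested genes, Trp53 itself and targets of p53, 9 rose and 1 fell. Under quantile normalization 6 rose, and under median of ratios 7. Without Unstimulated replicate 1 or CD3_CD28_ICOS replicate 1 or 3, 7 rose. Trp53inp1, a stress-induced nuclear protein, rose from 251, 242 and 176 CPM to 554, 494 and 561 CPM, by 1.28 ± 0.14 (adjusted p = 3.31e-06), and Fas, the death receptor, by 1.23 ± 0.14 (adjusted p = 3.79e-06). Aen, a nuclease, fell by 1.18 ± 0.24 (adjusted p = 0.000886). Compared with CD3_CD28 libraries 10 of the 14 were lower and 3 higher, Cdkn1a having the widest gap.

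Glycolysis genes rose throughout. All 19 tested were higher, by 0.76 (the monocarboxylate transporter Slc16a1) to 5.46 (the lactate exporter Slc16a3), with a median of 2.02. Slc16a3 was at 3.69, 2.34 and 2.52 CPM in Unstimulated and 112, 289.6 and 144 CPM in CD3_CD28_ICOS libraries (adjusted p = 2.34e-08). Tpi1, an isomerase of the lower pathway, rose by 4.18 ± 0.24 (adjusted p = 3.36e-08), and Hk2, the inducible hexokinase, by 4.23 ± 0.45 (adjusted p = 2.16e-05). Of the 19 genes, 18 were lower than in CD3_CD28 libraries, with a median difference of -1.17, and 7 were lower than in CD3 libraries. The 3 CD3_CD28_ICOS libraries were unequal here. Hk2 was at 43.8, 170.4 and 51.9 CPM and Aldoc, an aldolase, at 55.9, 327 and 133 CPM, with replicate 2 highest for both. Without it Hk2 rose by 3.63. The same library was highest for Egln3 and Vegfa, targets of the oxygen-regulated factor HIF. Of 14 tested genes of HIF, its regulators and its targets, Hif1a, Arnt and Vhl among them, 8 rose and none fell. Under quantile normalization 6 rose and 1 fell. Egln3, a HIF-induced prolyl hydroxylase, was at 2.31, 2.33 and 2.09 CPM in Unstimulated, 15.7, 157 and 38.8 CPM in CD3_CD28_ICOS and 868, 785 and 806 CPM in CD3_CD28 libraries, and rose by 3.86 ± 0.66 (adjusted p = 0.000815), or by 2.99 without replicate 2 and 4.61 without replicate 1. Vegfa, a secreted growth factor for vessels, rose by 3.48 ± 0.55 (adjusted p = 0.000348), or by 2.81 without replicate 2 and 4.15 without replicate 1, and Hif1a itself by 2.36 ± 0.11 (adjusted p = 1.31e-09), to 698, 736 and 756 CPM. For Hif1a the 3 libraries differed little.

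Lipid synthesis rose with it. Of 22 tested cholesterol synthesis genes, 21 rose, none fell, and the median was 1.73. Hmgcs1, which makes the substrate of the rate-limiting reductase, rose from 60.04, 77.8 and 48.8 CPM to 283, 419.8 and 267 CPM, by 2.35 ± 0.20 (adjusted p = 6.82e-07), and Pmvk, a kinase of the pathway, by 2.67 ± 0.16 (adjusted p = 1.54e-08). Of 11 tested fatty acid synthesis genes, 8 rose and none fell (6 rose under either other scaling or without Unstimulated replicate 3). Fads2, a desaturase of polyunsaturated fatty acids, was at 0.444, 0.656 and 0.869 CPM before and 57.3, 61.7 and 35.6 CPM after stimulation, a rise of 4.96 ± 0.18 (adjusted p = 3.34e-10), and Scd2, a desaturase of saturated fatty acids, rose by 3.60 ± 0.22 (adjusted p = 4.64e-08). Oxidative phosphorylation changed less, with 11 of 23 higher, 1 lower and a median of 0.23.

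Polyamine, nucleotide and redox genes were mixed. Odc1, the rate-limiting enzyme of polyamine synthesis, rose from 20.4, 17.2 and 20.8 CPM to 179, 88.8 and 136 CPM, by 2.67 ± 0.21 (adjusted p = 2.64e-07), while Srm, the spermidine synthase, fell by 0.85 ± 0.26 (adjusted p = 0.0121), to 29.7, 10.7 and 19.2 CPM, or by 0.49 without CD3_CD28_ICOS replicate 2, a call that was lost in a fit of the 2 groups alone (adjusted p = 0.0538). Of 9 tested polyamine genes 5 rose and 1 fell. Of 20 tested pentose phosphate and nucleotide genes 10 rose and 7 fell (4 without Unstimulated replicate 3 or CD3_CD28_ICOS replicate 2), and 17 were lower and none higher than in CD3 libraries. Impdh1, an enzyme of guanine nucleotide synthesis, fell by 0.89 ± 0.13 (adjusted p = 5.63e-05), and Dhodh, of pyrimidine synthesis, by 0.84 ± 0.14 (adjusted p = 0.00019). Of 14 tested redox genes 5 rose and 5 fell, and 3 rose and 7 fell under quantile normalization. Mt1, a metallothionein that binds zinc, was at 1.82, 0.874 and 1.17 CPM in Unstimulated, 2.42, 7.51 and 2.75 CPM in CD3_CD28_ICOS, 9.91, 12.7 and 8.74 CPM in CD3 and 121, 97.0 and 129 CPM in CD3_CD28 libraries. Its rise of 1.08 ± 0.29 (adjusted p = 0.00627), which was 0.67 without CD3_CD28_ICOS replicate 2 and -0.04 under quantile normalization, left it 4.60 ± 0.29 log2 units below the CD3_CD28 group (adjusted p = 6.21e-08).

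The machinery of protein synthesis did not rise as a whole. Of 25 tested ribosome biogenesis genes, 3 rose and 11 fell, and the median was -0.38. The number that fell was 21 without CD3_CD28_ICOS replicate 1, 7 without Unstimulated replicate 2 and 6 without the 3 libraries that stand apart, and it was 19 under quantile normalization. Rrp9, a factor of small subunit processing, fell from 31.2, 33.4 and 31.0 CPM to 15.1, 7.40 and 10.9 CPM, by 1.49 ± 0.19 (adjusted p = 1.64e-05). Polr1b, a subunit of RNA polymerase I, fell by 0.95 ± 0.27 (adjusted p = 0.00961). CD3_CD28_ICOS replicate 2 was lowest for both genes, and without it Polr1b fell by 0.62. Npm1, an abundant nucleolar protein, rose by 1.17 ± 0.14 (adjusted p = 9.54e-06). Against CD3 libraries 20 of the 25 were lower and none higher, with a median difference of -0.99. The cytosolic aminoacyl-tRNA synthetases, which charge tRNAs, had 6 of 19 higher and none lower, with a median of 0.19 (5 and 2 under quantile normalization), while 19 of 19 were higher in CD3 and 17 of 19 in CD3_CD28 libraries than in the same unstimulated ones (background 43.6% and 36.1%). Amino acid supply genes and targets of the stress factor ATF4 showed 13 of 24 higher and 1 lower (7 and 2 under quantile normalization). Asns, the asparagine synthetase, rose to 22.6, 14.8 and 11.0 CPM, by 2.79 ± 0.23 (adjusted p = 3.64e-07), but was at 134, 148 and 149.98 CPM in CD3_CD28 libraries. Trib3, an ATF4-induced pseudokinase, was at 7.09, 19.6 and 8.08 CPM in CD3_CD28_ICOS and 72.8, 81.2 and 72.8 CPM in CD3_CD28 libraries. In the direct contrast 21 of the 24 were lower than in CD3_CD28 libraries and none higher. Cytosolic ribosomal proteins fell in 8 of 23 tested cases (5 without Unstimulated replicate 3 or CD3_CD28_ICOS replicate 3) and rose in 2, with a median of -0.11; Rpl8, for example, fell from 2398, 2679 and 2605 CPM to 1966, 1989.8 and 1865 CPM, by 0.40 ± 0.07 (adjusted p = 0.000355). Many of these genes have near-identical pseudogenes, so their values are uncertain. Proteasome genes rose in 9 of 18 tested cases and none fell, and Psmb9, an immunoproteasome subunit, rose by 1.11 ± 0.10 (adjusted p = 7.38e-07). Of 19 tested chaperones 7 fell and 4 rose, but without the 3 libraries that stand apart 4 fell and 7 rose, and under median of ratios 7 fell and 2 rose. Only 4 fell without Unstimulated replicate 3 or CD3_CD28_ICOS replicate 2 or 3 alone, and 2 rose without Unstimulated replicate 1. Hsph1, a heat shock protein, was at 158, 164 and 461 CPM and 81.4, 38.0 and 55.3 CPM and fell by 2.02 ± 0.39 (adjusted p = 0.00124). Its highest value was that of Unstimulated replicate 3.

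**Figure D3:**
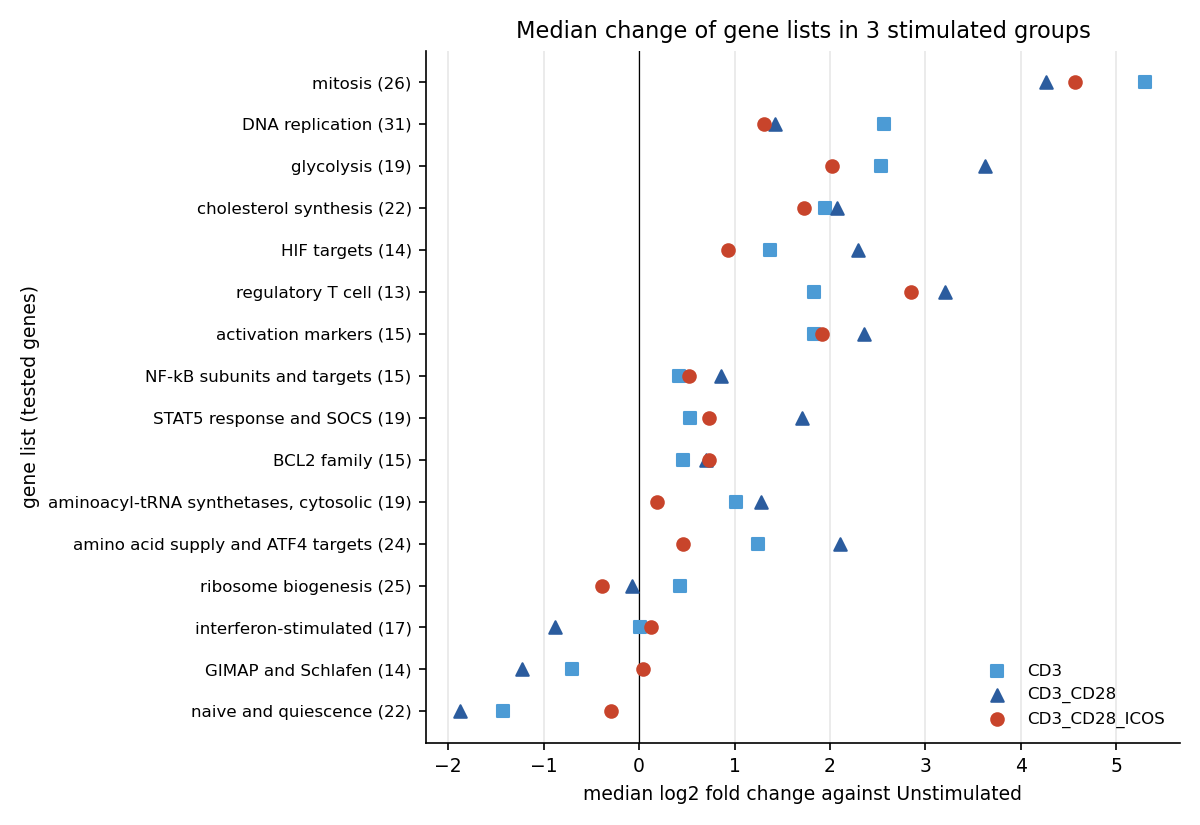
Median log2 fold change from the Unstimulated libraries (x axis) over the tested members of 16 gene lists (rows, number of tested genes in brackets) for the 3 stimulated groups, which share the same unstimulated libraries. Naive and quiescence genes have a median of -0.30 after CD3_CD28_ICOS and of -1.43 and -1.87 after CD3 and CD3_CD28, and mitosis genes have medians above 4 in all 3 groups.

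Effector molecules were limited in range. Of 36 listed cytokines and chemokines, 15 reached the level for testing, and 7 of them rose and 1 fell (6 and 4 under quantile normalization). Il2 itself was at 0.355, 0.341 and 0.363 CPM, Ifng at 0.746, 0.561 and 0.327 CPM, Il21 at 0.0533, 0.262 and 0 CPM and Il4 at 0.0266, 0.336 and 0.0353 CPM in the CD3_CD28_ICOS libraries, all below the level for testing. Ccl22, a chemokine that attracts cells with CCR4, was at 0.666, 0.364 and 0.304 CPM in Unstimulated and 60.6, 57.3 and 96.7 CPM in CD3_CD28_ICOS libraries and rose by 5.62 ± 0.33 (adjusted p = 3.27e-08). CD3 libraries had 71.5, 91.4 and 162 CPM and CD3_CD28 libraries 5.10, 2.55 and 1.73 CPM of it. B cells and dendritic cells also make Ccl22, and their part in this rise was not tested. Lif, a cytokine of the interleukin-6 family, rose to 11.5, 10.2 and 8.68 CPM, by 2.96 ± 0.27 (adjusted p = 1.03e-06), and CD3_CD28 libraries had 183, 117 and 151 CPM. Tnf did not pass the test, at 4.66, 4.26 and 12.1 CPM and 6.80, 5.87 and 5.502 CPM (-0.06 ± 0.26, adjusted p = 0.867); without Unstimulated replicate 3, its highest library, it was higher by 0.37 (adjusted p = 0.0342). Against CD3_CD28 libraries 10 of the 15 were lower and 4 higher.

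Gzmb, a cytotoxic protease, had the widest gap below both other stimulated groups of the genes named by rule. It was at 3.51, 1.46 and 3.30 CPM in Unstimulated and 45.6, 71.3 and 30.6 CPM in CD3_CD28_ICOS libraries, a rise of 3.71 ± 0.32 (adjusted p = 2.89e-06). CD3 libraries had 313, 533 and 377 CPM and CD3_CD28 libraries 1298, 1669 and 1769 CPM, so that the CD3_CD28_ICOS group was 3.07 ± 0.32 and 5.05 ± 0.32 log2 units lower (adjusted p = 4.29e-05 and 3.19e-07). Serpinb6b, a protease inhibitor, rose by 3.61 ± 0.14 (adjusted p = 3.57e-10). Prf1, the pore-forming perforin, fell from 64.9, 56.0 and 57.7 CPM to 10.2, 8.82 and 11.0 CPM, by 2.46 ± 0.17 (adjusted p = 3.61e-08), and Gzma by 2.22 ± 0.48 (adjusted p = 0.00163).

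Some genes of several helper cell lineages rose side by side. Il12rb2, a chain of the interleukin-12 receptor of TH1 cells, had the largest rise of the genes named by rule: it was at 1.71, 1.09 and 1.96 CPM in Unstimulated and 208, 305 and 242 CPM in CD3_CD28_ICOS libraries, a rise of 6.61 ± 0.18 (adjusted p = 1.7e-10). Tbx21, the TH1 factor T-bet, rose by 3.24 ± 0.20 (adjusted p = 2.67e-08), to 41.5, 43.5 and 35.8 CPM. Of 12 tested TH1 genes 7 rose and 1 fell. Of 8 tested TH2 genes 4 rose and 1, Maf, fell. The TH2 median was 0.75, against 2.88 in CD3_CD28 libraries compared with the same unstimulated ones. Gata3, the TH2 factor, rose by 1.38 ± 0.17 (adjusted p = 1.31e-05), from 62.1, 63.7 and 70.9 CPM to 138, 230.1 and 160.0 CPM, and Ccr8, a chemokine receptor of TH2 and regulatory cells, by 4.96 ± 0.19 (adjusted p = 3.34e-10). CD3 libraries had 9.56, 9.64 and 6.25 CPM of Ccr8, against 79.1, 65.0 and 62.8 CPM in CD3_CD28_ICOS libraries. Against CD3_CD28 libraries none of the 8 TH2 genes, Ccr8 included, was called higher, and 3 were lower.

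Of 13 tested genes associated with regulatory T cells, 11 rose and 1 fell, with a median of 2.85. The list also rose in the other stimulated groups, with 10 (CD3) and 9 (CD3_CD28) higher and medians of 1.83 and 3.21. In the direct contrasts 3 of the 13 were higher and 6 lower than in CD3_CD28 libraries. Against CD3 libraries 7 were higher and 1 lower. Lrrc32, which displays latent TGF-beta, rose from 9.33, 5.501 and 10.5 CPM to 124, 165 and 152 CPM, by 4.003 ± 0.19 (adjusted p = 2.65e-09), and was also higher than in CD3 and CD3_CD28 libraries, by 3.29 ± 0.19 and 0.71 ± 0.19. Ikzf2, the factor Helios, rose from 34.7, 18.6 and 24.4 CPM to 243, 127 and 212 CPM, by 2.85 ± 0.32 (adjusted p = 1.36e-05). It did not overlap with CD3 libraries (31.1, 13.2 and 24.3 CPM) or CD3_CD28 libraries (30.3, 29.0 and 33.6 CPM). Several members of the list, such as Ctla4, Il2ra and Tnfrsf4, are also general activation genes. Foxp3, the defining factor of the lineage, was at 45.1, 30.2 and 45.4 CPM in Unstimulated and 106, 18.2 and 55.4 CPM in CD3_CD28_ICOS libraries, at 0.27 ± 0.55 (adjusted p = 0.695). The groups overlapped, and without CD3_CD28_ICOS replicate 1 the difference was -0.30 (adjusted p = 0.601). In CD3 libraries it was at 14.8, 5.68 and 7.65 CPM and in CD3_CD28 libraries at 2.86, 4.53 and 5.22 CPM, and the CD3_CD28_ICOS group was 2.33 ± 0.55 and 3.26 ± 0.55 log2 units higher (adjusted p = 0.006 and 0.000482), or 3.00 and 3.93 without CD3_CD28_ICOS replicate 2.

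Of 9 tested follicular helper genes 5 rose and 3 fell. Bcl6, the factor that defines follicular helper cells, rose from 37.1, 28.0 and 28.7 CPM to 108, 87.5 and 117 CPM, by 1.70 ± 0.24 (adjusted p = 5.52e-05), and was at 5.06, 6.58 and 4.94 CPM in CD3_CD28 libraries. Cxcr5, the receptor for entry into follicles, rose from 21.1, 10.6 and 15.9 CPM to 62.5, 26.9 and 51.4 CPM, by 1.47 ± 0.37 (adjusted p = 0.00494). Sh2d1a, the adaptor SAP that couples SLAM receptors, rose by 0.88 ± 0.15 (adjusted p = 0.000181), while Maf fell by 2.02 ± 0.49 (adjusted p = 0.00352). B cells express Bcl6, Cxcr5 and Pou2af1 as well. Of 15 tested B cell markers 7 rose and 2 fell (12 and 1 without the 3 libraries that stand apart; 11 rose without CD3_CD28_ICOS replicate 2, and 4 without Unstimulated replicate 2 or CD3_CD28_ICOS replicate 1 or 3). The 2 that fell were Cr2 and Ighd. Cr2 had the largest change of the 15 (-3.11), and Fcer2a the largest rise (2.60). Ms4a1, which encodes the B cell surface protein CD20, was at 29.97, 19.5 and 32.2 CPM in Unstimulated, 107, 30.3 and 91.1 CPM in CD3_CD28_ICOS and 0.484, 0.179 and 0.196 CPM in CD3_CD28 libraries, and rose by 1.29 ± 0.44 (adjusted p = 0.0262). CD3_CD28_ICOS replicate 2 lay within the unstimulated range. The call was lost without Unstimulated replicate 2 (adjusted p = 0.0899) or CD3_CD28_ICOS replicate 1 or 3 (adjusted p = 0.0937 and 0.0914) and in a fit of those 2 groups alone (adjusted p = 0.0661), and the rise was 1.98 (adjusted p = 0.000707) without the 3 libraries that stand apart. The order of the 3 CD3_CD28_ICOS libraries in Ms4a1, Cxcr5 and Pou2af1 (129.6, 37.7 and 83.2 CPM) was the same, with replicate 1 highest and replicate 2 lowest. For Foxp3 and Ikzf2 the order of the 3 libraries was that of the B cell markers too. The part of B cells in these values was not tested.

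Receptors for interleukin-2 rose. Il2rb, the shared beta chain, rose from 151, 85.6 and 114 CPM to 963, 1495 and 967 CPM, by 3.28 ± 0.20 (adjusted p = 5.22e-08). The difference from CD3_CD28 libraries was -0.11 ± 0.20 (adjusted p = 0.649), and the level was above that of CD3 libraries by 1.21 ± 0.20 (adjusted p = 0.000505). STAT5 is the factor that interleukin-2 activates. Of 19 tested genes of its response and of SOCS inhibitors, Stat5a, Stat5b and Bcl6 among them, 11 rose and 6 fell. Pim2, a kinase, rose by 1.92 ± 0.19 (adjusted p = 2.66e-06) and Socs2, a feedback inhibitor, by 2.29 ± 0.30 (adjusted p = 2.36e-05), while Socs3, another feedback inhibitor, fell by 1.16 ± 0.27 (adjusted p = 0.00245). Compared with CD3_CD28 libraries, 17 of the 19 were lower and 1 higher, with a median difference of -1.46. Ifngr1, a chain of the interferon-gamma receptor, rose by 1.58 ± 0.16 (adjusted p = 2.43e-06) and was higher than in both other stimulated groups, at 412, 413 and 539 CPM against 210.0, 134 and 165 CPM (CD3) and 87.4, 96.0 and 97.0 CPM (CD3_CD28).

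Pro-apoptotic and anti-apoptotic genes were both among those that rose, while Bcl2 fell. Of 15 tested BCL2 family genes 10 rose and 1 fell. Bcl2l11, the pro-apoptotic protein BIM, rose from 99.0, 82.1 and 68.3 CPM to 245, 364 and 319.7 CPM, by 1.88 ± 0.15 (adjusted p = 2.72e-07), and was at 45.2, 57.5 and 47.5 CPM in CD3_CD28 libraries. Bcl2l1, the anti-apoptotic protein BCL-XL, rose by 1.35 ± 0.13 (adjusted p = 9.04e-07), to 60.04, 46.9 and 43.9 CPM, and was at 186, 232 and 205 CPM in CD3_CD28 libraries. Bcl2, the anti-apoptotic protein of resting cells, fell by 0.62 ± 0.13 (adjusted p = 0.000819), to 153, 173 and 154 CPM, and was at 432, 417 and 475 CPM in CD3_CD28 libraries. The CD3_CD28_ICOS group thus had more Bcl2l11, by 2.59 ± 0.15, and less Bcl2l1 and Bcl2, by 2.03 ± 0.13 and 1.46 ± 0.13, than the CD3_CD28 group (largest adjusted p of the 3, 4.32e-07).

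Interferon-stimulated genes changed in both directions. Of 17 tested, 6 rose and 4 fell, with a median of 0.13 against 0.08 for all tested genes. Those shares were near the 35.6% and 23.7% of all tested genes. Gbp2 and Igtp, GTPases best known as targets of interferon-gamma, rose by 2.41 ± 0.14 (adjusted p = 8.77e-09) and 2.26 ± 0.08 (adjusted p = 3.34e-10). Ifit3 and Rtp4, targets of type I interferon, fell by 1.49 ± 0.31 (adjusted p = 0.000883) and 2.09 ± 0.36 (adjusted p = 0.000217), yet both were higher than in CD3_CD28 libraries, by 2.17 ± 0.31 and 1.58 ± 0.36. In that contrast 13 of the 17 were higher and 1 lower, where 38.5% of all tested genes were higher and 24.5% lower. Irf1, which drives many of these genes, was at 193, 182 and 199 CPM in Unstimulated, 375, 382 and 400.1 CPM in CD3_CD28_ICOS and 95.1, 118 and 122 CPM in CD3_CD28 libraries. It rose by 1.01 ± 0.12 (adjusted p = 5.73e-06). Of 12 tested genes of antigen presentation by MHC class I, 5 rose and 5 fell, and 10 were higher and none lower than in CD3_CD28 libraries.

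The 10 genes with the widest gaps above both other stimulated groups included Ifit1bl1 and 3 genes of the Ifi200 family, which are not members of the interferon-stimulated list. Ifit1bl1, an Ifit family gene, was at 80.3, 86.7 and 57.4 CPM in Unstimulated, 134, 94.7 and 170.4 CPM in CD3_CD28_ICOS, 7.72, 9.64 and 9.87 CPM in CD3 and 0.528, 1.88 and 2.27 CPM in CD3_CD28 libraries. Both other stimulated groups lay below the unstimulated one. Its rise after CD3_CD28_ICOS, 0.80 ± 0.28 (adjusted p = 0.0257), did not pass without Unstimulated replicate 3 (adjusted p = 0.0988) or CD3_CD28_ICOS replicate 1 or 3 (0.0605 and 0.103), or with a pseudocount of 0.1 (0.123). Ifi206 fell from 218, 226 and 245 CPM to 77.5, 68.4 and 107 CPM, by 1.46 ± 0.48 (adjusted p = 0.0237), and CD3_CD28 libraries had 0.220, 4.79 and 2.08 CPM. That fall did not pass without Unstimulated replicate 1 or 2 or CD3_CD28_ICOS replicate 1 or 2 (adjusted p from 0.0535 to 0.0855) or with a pseudocount of 0.1 (adjusted p = 0.151). Ifi208 fell by 3.69 ± 0.22 (adjusted p = 9.57e-09), to 12.1, 8.39 and 16.9 CPM, and Ifi213 by 1.93 ± 0.32 (adjusted p = 0.000193), to 14.2, 14.9 and 22.9 CPM. Against CD3_CD28 libraries these 3 were 4.91 ± 0.48, 3.59 ± 0.22 and 3.82 ± 0.32 log2 units higher, and against CD3 libraries 2.23 ± 0.48, 2.92 ± 0.22 and 1.96 ± 0.32 (largest adjusted p of the 6, 0.0037). The Ifi200 genes are close copies of each other, so reads may have been divided among them and their separate values are uncertain.

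Their promoters are shown because all 4 carry 2 copies of GAAA with 2 bases of any kind between them, a form of the interferon-stimulated response element, given in capitals as found on either strand in the 250 bases before the start (RefSeq, GRCm38.p6).
Ifit1bl1 (chr19:34601969-34602218, minus strand): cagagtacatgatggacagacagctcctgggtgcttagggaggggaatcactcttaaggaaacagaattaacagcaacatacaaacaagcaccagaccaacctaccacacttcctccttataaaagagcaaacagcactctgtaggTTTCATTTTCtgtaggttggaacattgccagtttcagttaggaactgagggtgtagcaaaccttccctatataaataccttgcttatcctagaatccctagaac
Ifi208 (chr1:173673415-173673664, plus strand): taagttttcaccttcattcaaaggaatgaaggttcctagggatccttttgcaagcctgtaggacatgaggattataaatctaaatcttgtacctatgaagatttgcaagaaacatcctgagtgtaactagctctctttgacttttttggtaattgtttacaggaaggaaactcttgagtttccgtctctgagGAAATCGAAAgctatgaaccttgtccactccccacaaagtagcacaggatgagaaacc
Ifi206 (chr1:173491319-173491568, minus strand): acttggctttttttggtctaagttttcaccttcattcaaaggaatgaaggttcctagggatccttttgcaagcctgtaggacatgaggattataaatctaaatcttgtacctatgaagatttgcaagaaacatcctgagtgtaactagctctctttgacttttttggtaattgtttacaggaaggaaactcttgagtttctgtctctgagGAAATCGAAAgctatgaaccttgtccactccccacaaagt
Ifi213 (chr1:173599273-173599522, minus strand): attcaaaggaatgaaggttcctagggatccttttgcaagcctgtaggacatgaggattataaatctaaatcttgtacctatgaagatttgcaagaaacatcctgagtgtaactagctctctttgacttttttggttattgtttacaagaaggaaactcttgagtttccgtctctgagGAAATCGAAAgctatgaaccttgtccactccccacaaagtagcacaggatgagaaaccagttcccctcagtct
The windows of the 3 Ifi200 genes are near copies of each other, so their matches are not independent. The pattern was found in 8 of 11 promoters of the tested interferon-stimulated genes (72.7%), in 2.92% of the promoters of all tested genes, in 3.63% of those that rose and 5.88% of those that fell by at least 1 log2 unit, and in 5.05% of the 673 that were higher than in both other stimulated groups. GIMAP and Schlafen genes are families of lymphocyte GTPases and of growth regulators. Of 14 tested, 4 rose and 4 fell, shares near the 35.6% and 23.7% of all tested genes. Against CD3_CD28 libraries 12 were higher and none lower, where 38.5% of all tested genes were higher and 24.5% lower. Slfn5 fell by 1.32 ± 0.19 (adjusted p = 7.54e-05), to 95.9, 97.9 and 147 CPM, and was at 19.4, 24.7 and 35.96 CPM in CD3_CD28 libraries.

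Across all tested genes, 868 (8.83%) that changed from the unstimulated state were also higher than in both other stimulated groups, and 730 (7.43%) were also lower than in both. By rule, the 10 with the widest gap in each direction were named. Beside the interferon genes and Ikzf2, those that were higher included Vipr1, the receptor for vasoactive intestinal peptide, and Itih5, an extracellular matrix protein. Vipr1 was at 252, 284 and 256 CPM in Unstimulated, 81.3, 84.0 and 101 CPM in CD3_CD28_ICOS, 19.5, 22.2 and 19.4 CPM in CD3 and 7.87, 14.1 and 13.7 CPM in CD3_CD28 libraries. Itih5 was at 41.7, 42.9 and 35.3, 262, 323 and 322, 106, 61.6 and 67.5 and 69.7, 57.2 and 78.5 CPM in the same order of groups, and rose by 2.89 ± 0.18 (adjusted p = 3.24e-08). Vipr1 was thus intermediate between the unstimulated and the other stimulated cells, while Itih5 lay above all of them. Those that were lower than in both included, beside Gzmb, Cdk6, Irf4 and Igfbp4, the membrane-binding protein gene Anxa2, the cold shock protein gene Ybx3 and the neuronal growth protein gene Nrn1, which is also expressed in activated and anergic T cells. Anxa2 rose from 25.8, 13.4 and 20.5 CPM to 60.5, 246 and 91.3 CPM, by 2.47 ± 0.42 (adjusted p = 0.000608), and was at 745, 858 and 809 CPM in CD3_CD28 libraries. Nrn1 rose from 5.51, 2.95 and 3.35 CPM to 35.9, 100.5 and 71.5 CPM, by 3.75 ± 0.33 (adjusted p = 3.3e-06), and was at 151, 185 and 165 CPM in CD3 and 197, 241 and 330.0 CPM in CD3_CD28 libraries. Ybx3 rose by 2.01 ± 0.16 (adjusted p = 1.88e-07), to 122, 72.9 and 82.4 CPM, and was at 255, 272 and 305 CPM in CD3_CD28 libraries.

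**Figure D4:**
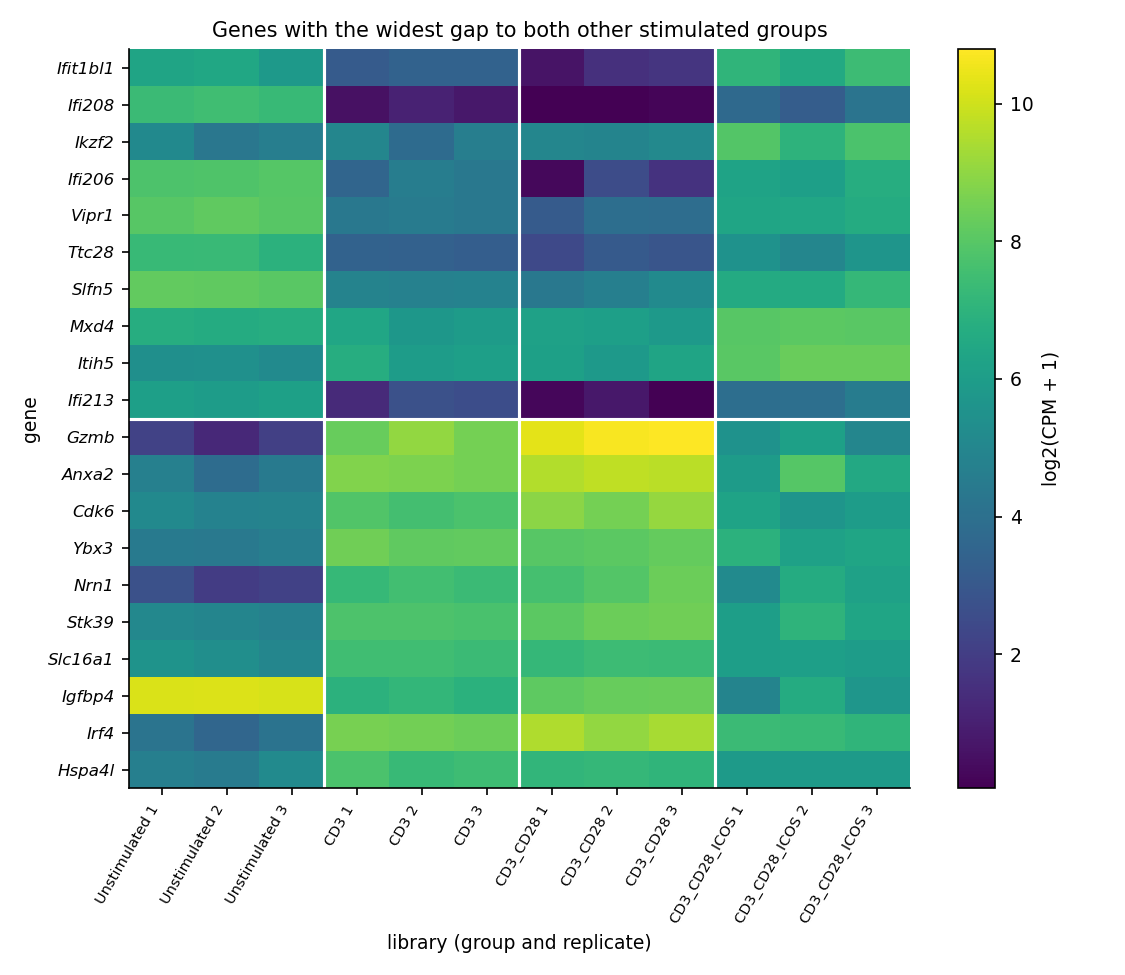
Log2(CPM + 1) in each of the 12 libraries (columns) for the 20 genes with the widest gap to both other stimulated groups (rows; upper 10 higher, lower 10 lower after CD3_CD28_ICOS, chosen for these gaps). Ikzf2, Mxd4 and Itih5 are highest in the 3 CD3_CD28_ICOS libraries, while the upper Ifi200 genes are highest in the unstimulated libraries and next highest after CD3_CD28_ICOS.

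A small set moved against the direction of the other stimulated groups. Higher than Unstimulated in CD3_CD28_ICOS but lower than Unstimulated in both CD3 and CD3_CD28 were 52 genes (0.529%), and 32 genes (0.326%) showed the reverse. The 3 comparisons share the unstimulated libraries. The 8 with the widest gap were all of the first kind. Ikzf3, the factor Aiolos, was at 252, 191 and 202 CPM in Unstimulated, 617, 465 and 537 CPM in CD3_CD28_ICOS, 174, 123 and 142 CPM in CD3 and 89.2, 82.8 and 86.1 CPM in CD3_CD28 libraries, and rose by 1.32 ± 0.14 (adjusted p = 2.24e-06). B cells express Ikzf3 too, and the order of the 3 CD3_CD28_ICOS libraries in it was that of the summed B cell markers, whose part in this rise was not tested. Dusp10, a phosphatase of stress-activated MAP kinases, rose by 0.75 ± 0.18 (adjusted p = 0.00324). Rgs3, a regulator of G protein signalling, rose by 0.91 ± 0.11 (adjusted p = 9.4e-06), and P2rx7, a receptor for extracellular ATP, by 0.90 ± 0.15 (adjusted p = 0.00017). Vps37b, of the endosomal sorting complex, rose by 1.26 ± 0.18 (adjusted p = 6.71e-05), and Slc23a2, a vitamin C transporter, by 1.02 ± 0.13 (adjusted p = 1.06e-05). For each of these 6 genes the 3 CD3_CD28_ICOS libraries lay above all others.

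Most of the largest falls were those of genes of other cell types. Of the 15 named by rule, 11 were pancreatic digestive enzymes. The amylase genes among them are close copies, so their separate values are uncertain. Pnlip, pancreatic lipase, was at 432, 363 and 79.7 CPM in Unstimulated libraries and was listed at 0 in all 3 CD3_CD28_ICOS libraries. Summed over 19 acinar genes the level was 2751, 2422 and 540.2 CPM in Unstimulated and 0.693, 1.12 and 0.988 CPM in CD3_CD28_ICOS libraries. Myeloid markers went from 680.4, 285 and 272 CPM to 51.5, 15.8 and 38.2 CPM, and erythroid and platelet markers from 210.3, 143 and 124 CPM to 7.31, 1.87 and 3.64 CPM. Csf1r, a growth factor receptor of macrophages, and the hemoglobin gene Hbb-bs were among the 15, as was Vcam1, an adhesion molecule of stromal cells and macrophages. All 14 tested acinar, 10 myeloid and 3 erythroid markers were lower. CD8 and NK markers were at 116, 79.0 and 76.5 CPM and 255, 116 and 151 CPM. Of the 5 tested, 3 rose, none fell and 2 did not pass the test. Cd8a rose from 11.5, 4.12 and 6.86 CPM to 46.6, 20.9 and 18.2 CPM, by 1.77 ± 0.34 (adjusted p = 0.000686), while Cd8b1 was at -0.03 and did not pass. Hmox1, a heme-degrading enzyme abundant in macrophages, fell by 3.91 ± 0.32 (adjusted p = 3.34e-07). In bulk RNA, fewer cells of a type and less RNA per cell cannot be told apart.

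**Figure D5:**
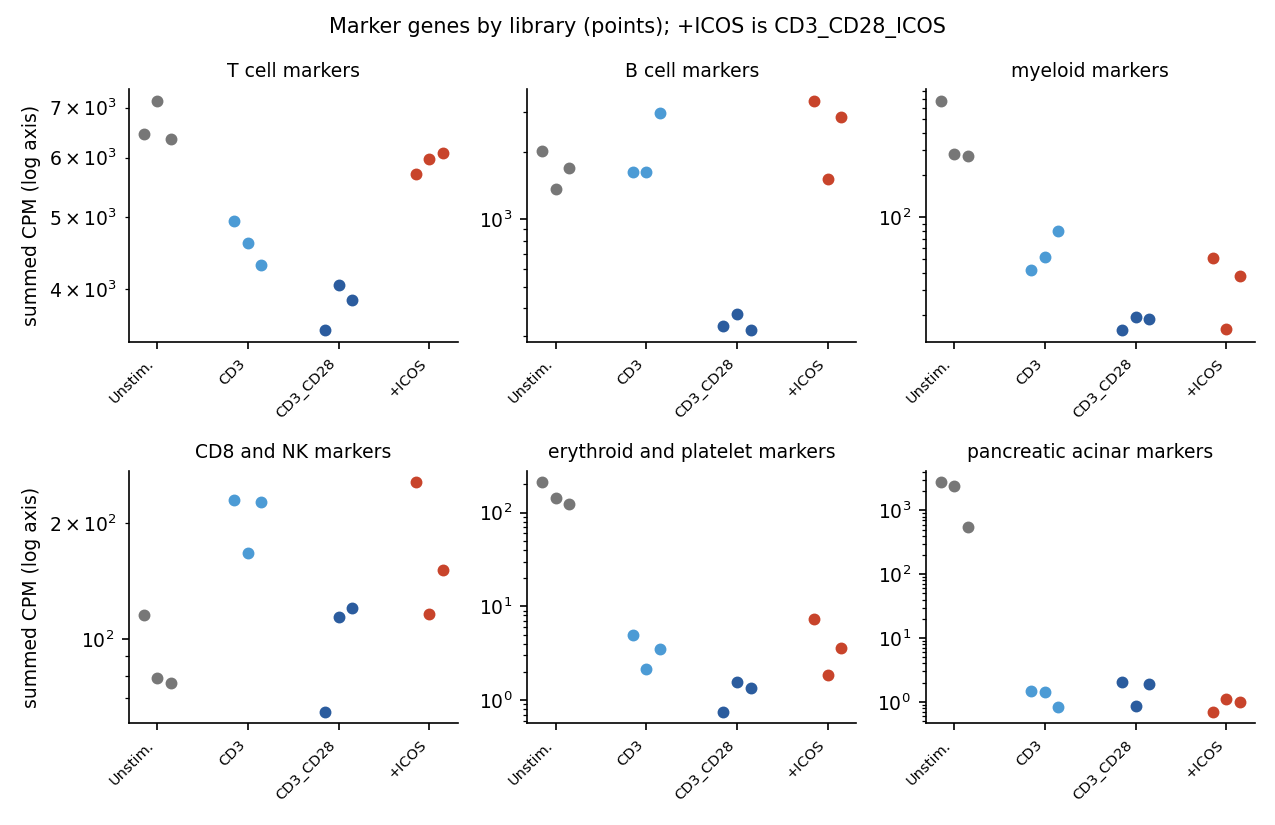
Summed CPM of T cell markers and of markers of 5 other cell types (log axis) in each of the 12 libraries (points) by group. Pancreatic, myeloid and erythroid sums are highest in the 3 Unstimulated libraries, and B cell sums are lowest in the 3 CD3_CD28 libraries, at 319 to 376 CPM.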

How the data were processed

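Total RNA of primary mouse CD4+ T cells was made into libraries and sequenced as read pairs, per the labels' protocols, with 4 groups of 3 libraries. The authors deposited a table of normalised gene values, which are CPM of the reads assigned to 17203 listed genes with 0.0001 added to every cell, as the values show. The authors also deposited a table of their own comparisons with log2 ratios, p-values and FDR values. Partek (version 10), DESeq2 and the build mm10 are named, per the submitters' processing notes; the sources used here do not name the aligner or the annotation.

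The 0.0001 was subtracted and log2(CPM + 1) was tested with limma 3.58.1 in R 4.3.3, with trend and robust estimation, 1 mean per group over all 12 libraries, for the 9826 genes that reached 10 CPM in 3 or more libraries. Tests were two-sided with Benjamini-Hochberg adjustment over those genes and a threshold of 0.05. The limma fit of CD3_CD28_ICOS against Unstimulated was tested on simulated data, and the other steps were not. An exact permutation test of 3 against 3 libraries cannot go below 0.1, so no single value was tested that way. Low CPM values (up to 1.2) were multiples of 1 step, within 0.02 of a step, in 76.5% to 81.4% of cases, which gives the estimated depths; as not nearly all were whole, no count model was run. Since the depth is an estimate, no counting interval is given.

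Genes were named by rule: the 15 largest rises and 15 largest falls among called genes whose groups do not overlap, with a mean of at least 46.6 CPM in the higher group and leaving out predicted, clone-named and antigen receptor genes, ribosomal protein pseudogenes and replication-dependent histones. From each of the 60 lists it took at most 5 called members in the main direction and 2 in the other. It also took the 10 widest gaps in each direction to both other stimulated groups, the 8 widest of opposite sign, and a fixed set of T cell genes, called or not. Some genes that the rule names are not reported here. Ndc80, named as the lower end of a range, falls outside it and was chosen after its values were seen. The members and lists were chosen with earlier results of these data known. Promoters were read from RefSeq tables. Figures were drawn with matplotlib 3.10.9. The alternatives tried were other pseudocounts, filters, scalings, variance models and library sets, the replicate block, and leaving out each library.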

Additional observations from a re-analysis of the deposited data

How the results depend on the processing

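With the filter on low values dropped, 3744 genes were lower in CD3_CD28_ICOS than in Unstimulated cells, against 2332 as reported, over more genes tested. The authors' deposited table, which covers all listed genes, holds 2119 genes that were higher and 982 that were lower at an FDR under 0.05 against Unstimulated, 2162 and 1181 against CD3_CD28, and 697 and 788 against CD3 libraries. The reported numbers for the last 2 are 3787 and 2403, and 1859 and 2824. The total count column of the authors' deposited table equals the sum of the 12 normalised values (largest relative difference 2.59e-06), so whether their test used raw or normalised values is not known, and the cause of the smaller numbers was not tested. Every other alternative for the 3 comparisons of CD3_CD28_ICOS cells gave counts within 1.5 times of those reported. Leaving out 1 library at a time gave 3212 to 3416 higher and 1989 to 2414 lower genes against Unstimulated, 3278 to 3833 and 2055 to 2468 against CD3_CD28, and 1381 to 1814 and 2277 to 2834 against CD3 libraries.

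Of 3349 values of single genes under alternatives, 3289 kept their direction and their side of the threshold, 35 lost the call, 14 gained one and 11 changed sign. Under quantile normalization the sign changed for Mt1 (-0.044), Nfatc2 (-0.051) and Nr4a2 (-0.14), and under median of ratios for Nfatc2 (-0.056). The cause was not tested. With 1 library left out, Cd4 ranged from -0.14 to 0.024, Foxp3 from -0.30 to 0.94, Nfatc2 from -0.092 to 0.16 and Tnf from -0.29 to 0.37. An alternative added after the data were seen left out Unstimulated replicate 3, CD3_CD28_ICOS replicate 2 and CD3_CD28 replicate 1 together, and gave -0.10 for Nfatc2 and 0.38 for Tnf. Of 1020 list medians under alternatives, 916 moved by less than 1 SD and 104 by more, 13 of those to the other sign. Where 2 or fewer members of a list that the report counts were called in a direction, leaving out 1 library moved that number by at most 2.

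The labels do not say whether same-numbered samples are paired, and deviations within groups of 3 libraries cannot settle it. Same-numbered CD3_CD28_ICOS and Unstimulated libraries had correlations of their deviations of 0.012, 0.015 and -0.076, and CD3_CD28_ICOS and CD3_CD28 libraries of -0.0998, 0.194 and 0.0582. With CD3 libraries they were 0.0879, 0.408 and 0.335. There replicates 2 and 3 correlated best with their own number, and CD3_CD28_ICOS replicate 1 with CD3 replicate 3 (0.132). Against CD3_CD28 libraries replicates 2 and 3 also correlated best with their own number, and replicate 1 with CD3_CD28 replicate 3 (0.326). These are hints from the data and not the design. A fit with the replicate number as a block gave 3483 higher and 2303 lower genes against Unstimulated, 3734 and 2387 against CD3_CD28, and 1815 and 2774 against CD3 libraries. Genes below 10 CPM were not tested, which limits what can be said of weakly expressed cytokines.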
